A study of Mus musculus with 6 samples.

Results

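Solute carriers are membrane proteins that move small molecules such as amino acids, sugars, ions, metals and nucleosides across the plasma membrane and the membranes of organelles. They are numbered by family, so Slc25a13 is member 13 of family 25, and members of 1 family usually share ancestry but need not share a substrate. The 158 genes described here are the rows of a mouse expression table whose symbol starts with Slc and a number and whose level reached 1 RPKM in at least 3 of 6 libraries. The members were thus selected on their level and their name. RPKM counts reads relative to gene length and to the mapped reads of the library, so levels of different genes are compared per unit of length. The table held 38124 rows and 358 solute carrier rows. Of these, 191 stayed below the filter, 126 of them above 0 in some library and 65 at 0 in all libraries, and 9 that passed were left out by name (Slc2a1, Slc16a3, Slc7a11, Slc3a2, Slc40a1, Slc48a1, Slc11a2, Slc30a1 and Slc25a20). Of these 9, 6 were higher, 2 lower and 1 not called in the test below, so the counts over the 158 describe the carriers without them.

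The cells were macrophages grown from the bone marrow of wild-type C57BL mice. One group of 3 libraries came from untreated macrophages, and the other group of 3 from macrophages kept for 24 hr with thymocytes in which dexamethasone, a synthetic glucocorticoid, had induced apoptosis, at a ratio given as 1:40. The apoptotic cells were taken off before the macrophages were collected for RNA, and the series' design text calls the samples biological replicates. Medium, growth factor and the age and sex of the mice are not given in the sources used here. A macrophage that takes up apoptotic cells, a process called efferocytosis, has to digest their protein, lipid, nucleic acid and metal content in the lysosome, and carriers of the lysosomal, mitochondrial and plasma membranes are the known routes by which the products leave, are reused or are exported. Here 1 measurement bears on this, the level of each carrier's RNA, and RNA does not show the amount or the activity of the protein.

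The libraries held 19315132 to 25933208 mapped reads, and a single read on 1 kb of gene corresponded to 0.0386 to 0.0518 RPKM. The median carrier had 817 reads a library, and the fewest reads of any of the 158 in a library were 7. Libraries of 1 group correlated over the 158 genes with Pearson's r of 0.997 to 0.999 and libraries of different groups with r of 0.909 to 0.916, across genes, which are not independent replicates. The labelled cell type was checked on 10 macrophage markers, of which all passed the filter and 3 were higher and 7 lower with apoptotic thymocytes. Among the falls, Fcgr1 went from 52.7 to 7.43 RPKM, Cd14 from 200 to 50.5 RPKM and Itgam from 119 to 33.1 RPKM. Among the rises, Mertk went from 21.9 to 95.0 RPKM and Lyz2 from 13388 to 19419 RPKM. Cd163, 1 of the 3 rises, went from 0.131 to 3.70 RPKM. It reached 1 RPKM in treated libraries only and so had to differ. Of 20 thymocyte markers 1 passed the filter, Cd4, which was lower, their summed level was 4.84 to 5.42 RPKM in untreated and 2.34 to 2.77 RPKM in treated libraries, and Cd3e, Cd8b1, Rag2, Ptcra and Themis were at 0 in all libraries. Of the other 15, 10 had a lower and 5 a higher treated mean, among the latter Cd3d, at 0 in all untreated and 0.0291 to 0.0642 RPKM in treated libraries, and Cd3g, at 0 in all untreated libraries and above 0 in 2 treated ones. Granulocyte markers went from 6.42 to 7.90 RPKM in sum to 89.2 to 95.7 RPKM, and without Mmp8, at 87.8 RPKM treated, from 0.248 to 0.410 RPKM to 4.04 to 4.41 RPKM. Of the 10, 8 had a higher and 1 a lower treated mean and Ly6g was at 0 in all libraries, and Mmp8 was called higher. Ngp, from 0.181 to 2.81 RPKM, was called higher too, but reached 1 RPKM in treated libraries only and so had to differ. Camp went from 0.0240 to 0.758 RPKM and Ltf from 0.0408 to 0.330 RPKM, both below the filter. By summed level, erythroid markers went from 0.408 to 0.438 RPKM to 1.32 to 1.90 RPKM. Of the 10 that matched, 0 passed the filter, and 7 had a higher and 3 a lower treated mean. For 2 of them all treated libraries were above all untreated ones. Of 8 dendritic cell markers 1 passed the filter, Batf3, which was lower, and of 8 fibroblast and stromal markers 0 did. The part of these cells in the carriers' values was not tested.

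About as large a share of carriers changed as of genes in general. A gene was called changed at an adjusted p under 0.05 in limma on log2(RPKM + 1), with Benjamini-Hochberg adjustment over all 10173 genes that passed the filter. With apoptotic thymocytes 35 of 158 carriers were higher, or 22.2%, where 18.8% of all tested genes were, and 70 were lower, or 44.3%, where 46.0% of all tested genes were. Either way 66.5% were called against 64.8% of all tested genes, which is near the background and not a result about carriers. In bulk samples fewer cells of a kind and less RNA per cell cannot be told apart. The median log2 change, which is the treated minus the untreated mean of log2(RPKM + 1), was -0.11 over the 158 and -0.13 over all tested genes.

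The balance between rises and falls moved with the scaling of the libraries. Scaling by the median of gene ratios moved the median tested gene from -0.13 to 0.02, and 60 carriers were then higher and 46 lower, beside 31.9% and 27.9% of all genes tested. Upper-quartile scaling gave 59 higher and 46 lower carriers, beside 32.3% and 27.7%. All 35 rises and 46 of the 70 falls were kept with the median of ratios, and 0 of the other falls were called higher, while 3 of them, Slc36a4, Slc39a3 and Slc25a1, turned in sign without a call. Changes of classes are therefore also given relative to the median tested gene. Of the 105 calls, 78 were kept under every alternative setting in which they were tested, 32 of them rises and 46 falls. Without the 5 genes named below that had to differ, 73 of 100 calls were kept, 30 rises and 43 falls.

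Group ranges did not overlap for 115 carriers, or 72.8%, beside 69.6% of all tested genes, with the treated libraries above for 38 and below for 77. Most changes were small, since 110 carriers moved less than 1.5-fold in mean RPKM, 19 were at least 1.5-fold higher and 29 at least 1.5-fold lower. The spread within groups was smaller still, with a median coefficient of variation of 3.47% in untreated and 5.18% in treated libraries. The summed level of the 158 carriers was 2863 ± 14.2 RPKM untreated and 2985 ± 81.2 RPKM treated (SD, n = 3).

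Of the 158, 153 were at 1 RPKM or more in all 6 libraries. In these, 33 were higher and 67 lower, or 65.4%, where 63.4% of the 9413 tested genes at that level in all 6 libraries were called. The other 5 reached 1 RPKM in 1 group only and so had to differ. They are Slc7a5, Slc24a3 and Slc43a3, which passed in untreated libraries, and Slc6a9 and Slc16a9, which passed in treated libraries, and their values below are a description. The members nearest the filter from inside were Slc6a9, whose libraries held 0.141, 0.106 and 0.135 RPKM in the untreated and 1.01, 1.20 and 1.02 RPKM in the treated libraries, Slc25a35, with 1.61, 1.09 and 1.32 RPKM in the untreated and 1.11, 1.23 and 1.19 RPKM in the treated libraries, and Slc29a2, with 1.24, 1.25 and 1.40 RPKM in the untreated and 1.28, 1.07 and 1.10 RPKM in the treated libraries. The nearest rows from outside were Slc2a4rg-ps, a pseudogene row with a mean of 1.30 RPKM untreated and 0.771 RPKM treated, Slc9a5 with 0.869 and 0.368 RPKM, and Slc7a4 with 0.816 and 0.786 RPKM.

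**Figure D1:**
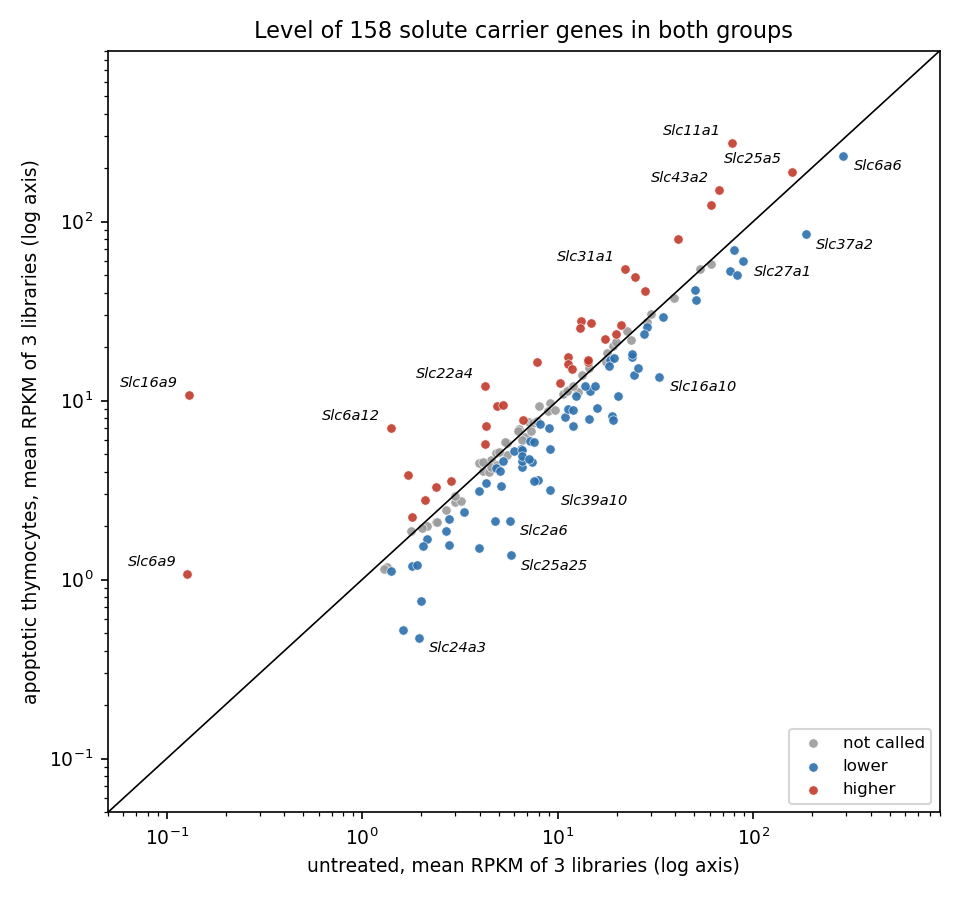
Mean RPKM of each of the 158 carriers in the 3 untreated libraries (horizontal, log axis) against the 3 libraries with apoptotic thymocytes (vertical, log axis); 1 point is 1 gene, the line marks equal levels, and colours give the limma call. Slc11a1 stands above the line and Slc37a2 below it at the high end, and Slc16a9 and Slc6a9 stand at the left because they were near 0.13 RPKM in untreated libraries.

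Among the 158, the most abundant carrier changed. In untreated macrophages the 5 highest of the 158 genes were Slc6a6, Slc37a2, Slc25a5, Slc27a1 and Slc15a3, which held 28.1% of the summed level of the 158, and in treated macrophages Slc11a1, Slc6a6, Slc25a5, Slc43a2 and Slc9a3r1, the last of which names a scaffold protein and no carrier, held 32.5%. Slc6a6, the taurine transporter, stood first untreated at 289 ± 4.15 RPKM and second treated at 233 ± 5.80 RPKM. Slc11a1, at 275 RPKM treated, went from rank 7 to rank 1 of the 158, and Slc37a2 from rank 2 to rank 6. Slc40a1 and Slc48a1, left out by name, stood above it in treated libraries, at 527 and 425 RPKM. Their untreated means were 59.4 and 107 RPKM. Slc25a5, an ADP/ATP carrier of the inner mitochondrial membrane, was at rank 3 in both, with 156, 163 and 156 RPKM in the untreated and 179, 198 and 194 RPKM in the treated libraries.

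Past a log2 change of 1, 8 carriers were called higher and 7 lower, where 2.46% and 5.64% of all tested genes were. The 8 rises were Slc16a9, Slc11a1, Slc6a12, Slc22a4, Slc31a1, Slc43a2, Slc36a1 and Slc9a3r1. The 7 falls were Slc25a25, Slc39a10, Slc16a10, Slc25a13, Slc37a2, Slc44a1 and Slc2a6. Slc9a3r1 names a scaffold protein, and the other 14 are carriers of 12 families that serve the plasma, lysosomal, endoplasmic reticulum and mitochondrial membranes. Slc16a9 passed in treated libraries only and had to differ, and the calls of the other 14 were kept under every alternative setting tried. The group ranges of all 15 were apart.

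**Figure D2:**
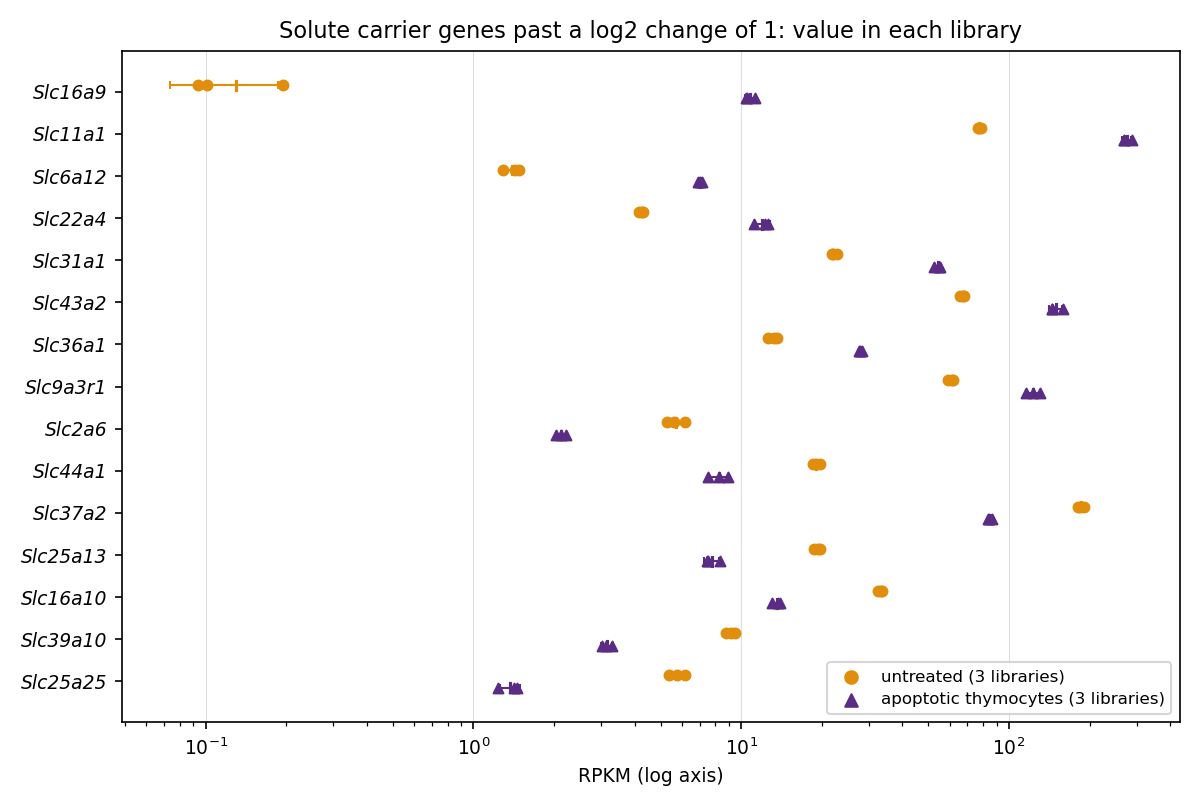
RPKM (log axis) in each library for the 15 carriers called with a log2 change past 1, ordered by change; circles are the 3 untreated and triangles the 3 treated libraries, short vertical marks are group means and bars are 1 SD. In every row the circles and triangles are separate, and Slc16a9 has the widest gap, from 0.130 RPKM to 10.8 RPKM on average.

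The bases before the annotated start are shown for the 2 largest rises and the 2 largest falls of the members by log2 change. These genes mark the ends of the range. The bases let a reader compare start regions of carriers that moved in opposite directions. They are RefSeq sequence on GRCm38.p6, 250 bases ending just before the start, 5′ to 3′ on the gene's own strand, with motif matches in capitals.
Slc16a9, chr10:70245026-70245275, plus strand: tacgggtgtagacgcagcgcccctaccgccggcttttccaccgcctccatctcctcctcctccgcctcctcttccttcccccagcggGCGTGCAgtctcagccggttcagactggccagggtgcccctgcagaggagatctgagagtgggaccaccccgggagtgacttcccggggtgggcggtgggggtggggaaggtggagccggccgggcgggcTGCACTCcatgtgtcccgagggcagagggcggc
Slc11a1, chr1:74374953-74375202, plus strand: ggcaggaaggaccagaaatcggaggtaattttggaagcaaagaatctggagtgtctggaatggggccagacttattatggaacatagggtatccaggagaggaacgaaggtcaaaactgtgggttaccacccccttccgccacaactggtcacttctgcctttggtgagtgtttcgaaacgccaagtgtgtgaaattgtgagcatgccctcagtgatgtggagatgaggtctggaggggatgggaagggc
Slc25a25, chr2:32451471-32451720, minus strand: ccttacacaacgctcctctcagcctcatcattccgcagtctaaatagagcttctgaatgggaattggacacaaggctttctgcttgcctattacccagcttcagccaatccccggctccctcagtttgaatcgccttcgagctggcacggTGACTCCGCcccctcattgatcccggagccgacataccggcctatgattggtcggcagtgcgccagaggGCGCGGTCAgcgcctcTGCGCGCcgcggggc
Slc39a10, chr1:46853619-46853868, minus strand: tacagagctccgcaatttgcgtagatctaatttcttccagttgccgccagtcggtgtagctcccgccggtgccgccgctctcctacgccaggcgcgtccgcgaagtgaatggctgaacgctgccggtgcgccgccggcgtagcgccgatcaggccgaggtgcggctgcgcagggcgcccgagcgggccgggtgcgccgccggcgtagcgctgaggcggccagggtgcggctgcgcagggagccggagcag
The RefSeq start lay 176, 0, 25 and 428 bases from the 5′ end that the deposited table gives for these genes, in this order, and Slc25a25 and Slc39a10 have 3 and 2 RefSeq starts, of which 1 is shown. Searched on both strands were an antioxidant response core, TGACNNNGC, an E-box, CACGTG, a metal response core, TGCGCNC or TGCACNC, an amino acid response core, TGATGNAA, and a PU.1 core, GAGGAAGT. Slc16a9 held the metal response core at positions -163 to -157 and -33 to -27, counted from the start. Slc25a25 held the antioxidant response core at positions -100 to -92 and -31 to -23 and the metal response core at positions -15 to -9. In the windows of Slc11a1 and Slc39a10 0 matches were found, and a match or its absence is a description of the letters only. In the 32851 mouse promoter windows of this length, 10.2% held the antioxidant response core, 6.0% the E-box, 21.4% the metal response core, 3.5% the amino acid response core and 2.4% the PU.1 core. The windows were 70.4%, 51.2%, 60.0% and 71.6% G and C in the order shown, and the letters of 3 of the 5 motifs were in none of the 4 windows.

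Among the members expressed in both groups, metal carriers held the largest rise by log2 change, that of Slc11a1. By ratio of mean RPKM Slc6a12, of another class, rose more, 5.01-fold beside 3.55-fold for Slc11a1. Slc7a11, Slc40a1 and Slc48a1, left out by name, also rose more, with log2 changes of 3.81, 3.13 and 1.97. Of 21 metal carriers 5 were higher and 12 lower, and 4 were not called. Their median was -0.17, which is -0.04 relative to the median tested gene. With the median of ratios the split was 8 higher and 7 lower, beside 31.9% and 27.9% of all genes tested. As deposited 18.8% of all tested genes were higher and 46.0% lower. Slc11a1, known as NRAMP1, moves divalent metal ions out of the phagosome of macrophages. Its libraries held 78.7, 76.7 and 77.4 RPKM in the untreated and 269, 269 and 287 RPKM in the treated libraries. All treated libraries were above all untreated libraries, 3.55-fold higher in mean, with a log2 change of 1.81 ± 0.044 (SE) and an adjusted p of 1.95e-09. C57BL mice are known to carry a Slc11a1 allele of impaired function, and an RNA level does not show function. Slc11a1 lies on chromosome 1 at 74375203 to 74386062 (mm10, plus strand). It set most of the change of the class, whose summed level was 401 ± 4.60 RPKM untreated and 642 ± 23.7 RPKM treated, and without Slc11a1 324 ± 5.64 and 367 ± 14.5 RPKM (SD, n = 3).

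Both copper carriers of family 31 were called higher, beside 18.8% of all tested genes. Slc31a1, or CTR1, the high-affinity copper importer, had 21.9, 22.7 and 22.05 RPKM in the untreated and 52.6, 55.3 and 54.7 RPKM in the treated libraries. The ranges were apart and the mean was 2.44-fold higher (log2 change 1.25 ± 0.041, adjusted p = 1.51e-08). Its neighbour Slc31a2, which lies 62315 bp away on chromosome 4 and is found in late endosomes and lysosomes, went from 28.0 ± 1.34 to 40.7 ± 2.67 RPKM (log2 change 0.53 ± 0.058, adjusted p = 4.87e-05).

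Zinc carriers of the ZIP family 39, which bring zinc into the cytosol, had 8 of 10 members lower, 1 higher and 1 not called. With either scaling 4 were lower, 2 higher and 4 not called. Of all tested genes 46.0% were lower as deposited, 27.9% with the median of ratios and 27.7% with the upper quartile. Slc39a10, a zinc importer of the plasma membrane, had 8.78, 9.16 and 9.48 RPKM in the untreated and 3.29, 3.02 and 3.12 RPKM in the treated libraries. Each treated library was below each untreated one, 2.91-fold lower in mean, with a log2 change of -1.29 ± 0.053 and an adjusted p of 5.05e-08. Slc39a6, its closest relative in the family, went from 20.3 ± 0.544 to 10.6 ± 0.518 RPKM (adjusted p = 4.56e-07). Slc39a7, which releases zinc from the endoplasmic reticulum and Golgi, moved the other way, with 42.6, 41.2 and 40.1 RPKM in the untreated and 75.9, 81.8 and 82.8 RPKM in the treated libraries. It was 1.94-fold higher, with no overlap of the groups (log2 change 0.94 ± 0.048, adjusted p = 2.33e-07). Of the zinc exporters of family 30, which move zinc out of the cytosol, Slc30a4, an endosomal carrier, fell from 4.75 ± 0.136 to 2.12 ± 0.133 RPKM, and Slc30a7, a Golgi carrier, rose from 6.63 ± 0.158 to 7.75 ± 0.353 RPKM. The first of these was 2.25-fold lower (adjusted p = 9.43e-07) and the second 1.17-fold higher (adjusted p = 0.0075).

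Amino acid and peptide carriers were split between rises and falls of similar size. Of 20 members 6 were higher, 11 lower and 3 not called, beside 18.8% higher and 46.0% lower of all tested genes. The class median was -0.18, or -0.05 relative to the median tested gene. With the median of ratios 7 were higher and 8 lower, beside 31.9% and 27.9% of all genes tested. Slc43a2, or LAT4, which carries leucine and other neutral amino acids without exchange, had 67.7, 65.8 and 67.2 RPKM in the untreated and 145, 145 and 159 RPKM in the treated libraries. Each treated library was above each untreated one, 2.24-fold higher (log2 change 1.15 ± 0.048, adjusted p = 6.40e-08). Slc36a1, or PAT1, which couples the exit of small amino acids from the lysosome to protons, had 13.6, 12.6 and 13.2 RPKM in the untreated and 27.8, 27.6 and 28.2 RPKM in the treated libraries. It was 2.12-fold higher with ranges apart (log2 change 1.03 ± 0.044, adjusted p = 6.44e-08). Slc7a7, the light chain of a carrier that exports cationic amino acids in exchange for neutral ones, went from 11.2 ± 0.197 to 17.4 ± 0.881 RPKM (adjusted p = 6.80e-06), and Slc38a6, a member of the family of sodium-coupled neutral amino acid transporters, from 4.23 ± 0.184 to 5.76 ± 0.577 RPKM (adjusted p = 0.00147).

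Importers and exchangers for neutral and cationic amino acids were among the falls. Slc16a10, or TAT1, which carries aromatic amino acids and thyroid hormones, had 32.4, 33.5 and 33.2 RPKM in the untreated and 13.1, 13.7 and 13.99 RPKM in the treated libraries. Its treated libraries were all below, 2.43-fold lower in mean (log2 change -1.22 ± 0.044, adjusted p = 2.17e-08). Slc7a1, or CAT1, the arginine and lysine importer, had 3.89, 3.91 and 4.10 RPKM in the untreated and 1.38, 1.58 and 1.52 RPKM in the treated libraries. The groups were apart and the mean was 2.66-fold lower (log2 change -0.99 ± 0.056, adjusted p = 4.66e-07). Slc7a5, or LAT1, the exchanger for large neutral amino acids, passed the filter in untreated libraries only, with 1.68, 2.21 and 2.13 RPKM in the untreated and 0.681, 0.825 and 0.761 RPKM in the treated libraries. Slc1a5, or ASCT2, a glutamine exchanger, went from 9.09 ± 0.193 to 5.39 ± 0.0574 RPKM (adjusted p = 1.79e-06), and Slc7a8, or LAT2, from 76.5 ± 1.31 to 52.8 ± 1.96 RPKM (adjusted p = 5.99e-06). Slc15a3, a peptide and histidine carrier of the endosome and lysosome, went from 82.7 ± 1.96 to 50.3 ± 1.26 RPKM (adjusted p = 5.90e-07) and from rank 5 to rank 14. Slc38a1, a glutamine importer, fell from 14.6 ± 0.228 to 11.3 ± 0.431 RPKM (adjusted p = 0.000187). Slc6a9, or GlyT1, the glycine importer whose libraries are given above as nearest the filter, was 8.45-fold higher in treated libraries and passed in these only. Slc36a4 was called lower at 18.5 ± 0.528 and 16.9 ± 0.665 RPKM (log2 change -0.13 ± 0.047, adjusted p = 0.037), but lost its call and turned in sign under both scalings, and also lost it without untreated replicate 1, 2 or 3 or treated replicate 2 or 3 (adjusted p of 0.0638 to 0.145).

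Mitochondrial carriers, all of family 25, had a median absolute log2 change of 0.19, beside 0.25 over all 158 and 0.48 over amino acid carriers, and carriers with the same substrates moved in opposite directions. Of 32 members 6 were higher, 12 lower and 14 not called, beside 18.8% higher and 46.0% lower of all tested genes. The class median was -0.11, or 0.02 relative to the median tested gene. With the median of ratios 11 were higher and 6 lower, beside 31.9% and 27.9% of all genes tested. Slc25a12 and Slc25a13, or aralar and citrin, both exchange aspartate for glutamate across the inner membrane as part of the malate-aspartate shuttle. Slc25a12 had 4.82, 5.13 and 4.81 RPKM in the untreated and 9.26, 8.93 and 9.69 RPKM in the treated libraries. Slc25a13 had 18.7, 19.3 and 19.7 RPKM in the untreated and 7.55, 7.45 and 8.36 RPKM in the treated libraries. The first was 1.89-fold higher (log2 change 0.80 ± 0.051, adjusted p = 1.15e-06) and the second 2.47-fold lower (log2 change -1.21 ± 0.053, adjusted p = 8.48e-08), each with ranges apart. Citrin was thus the more abundant untreated and aralar the more abundant treated, by mean RPKM. The ADP/ATP carriers also went separate ways, with Slc25a5 at 158 ± 4.29 and 190.3 ± 10.3 RPKM (log2 change 0.26 ± 0.051, adjusted p = 0.00166) and Slc25a4 at 50.8 ± 1.49 and 36.6 ± 1.29 RPKM (log2 change -0.46 ± 0.045, adjusted p = 1.86e-05). Slc25a5 has many processed pseudogenes, and how reads that match several places were counted is not given in the sources used here, so its level is uncertain.

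Slc25a25, Slc25a24 and Slc25a23, calcium-regulated carriers that exchange ATP-magnesium for phosphate, were called lower, beside 46.0% of all tested genes. Slc25a25 had 5.38, 6.18 and 5.75 RPKM in the untreated and 1.46, 1.42 and 1.24 RPKM in the treated libraries. The treated libraries were all below, 4.20-fold lower, with the largest fall of the 158 on the log2 scale (log2 change -1.51 ± 0.065, adjusted p = 7.42e-08). Slc25a24 fell from 24.6 ± 0.357 to 13.8 ± 0.472 RPKM (adjusted p = 4.10e-07) and Slc25a23 from 1.80 ± 0.199 to 1.19 ± 0.0501 RPKM (adjusted p = 0.0016). Slc25a44, a mitochondrial carrier of branched-chain amino acids, rose from 11.3 ± 0.339 to 16.0 ± 0.742 RPKM (adjusted p = 3.89e-05), and Slc25a33, a pyrimidine nucleotide carrier, from 2.10 ± 0.201 to 2.77 ± 0.127 RPKM (adjusted p = 0.00434). The carriers of mitochondrial iron import, Slc25a37 and Slc25a28, or mitoferrin 1 and 2, were not called, at 8.95 ± 0.612 and 8.78 ± 0.916 RPKM and at 10.6 ± 0.767 and 10.9 ± 0.574 RPKM. With the median of ratios Slc25a28 was called higher.

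Inorganic ion carriers had the lowest median among classes with 10 or more members. Of 21 members 3 were higher, 13 lower and 5 not called, beside 18.8% higher and 46.0% lower of all tested genes. The class median was -0.25, or -0.12 relative to the median tested gene. With the median of ratios 4 were higher and 9 lower, beside 31.9% and 27.9% of all genes tested. Of carriers that exchange sodium for calcium, Slc8a1 and Slc24a6 were called higher. Slc24a5, of family 24, was not called, at 6.55 and 6.02 RPKM. Slc24a3 was called lower but had to differ. Slc8a1, or NCX1, the sodium-calcium exchanger of the plasma membrane, had 7.48, 8.08 and 7.86 RPKM in the untreated and 18.1, 15.4 and 15.8 RPKM in the treated libraries. The ranges were apart and the mean was 2.10-fold higher (log2 change 0.98 ± 0.065, adjusted p = 1.34e-06). Slc24a6, the mitochondrial sodium-calcium exchanger NCLX, had 23.6, 26.1 and 24.9 RPKM in the untreated and 47.2, 48.9 and 51.4 RPKM in the treated libraries. It was 1.98-fold higher, also without overlap (log2 change 0.96 ± 0.052, adjusted p = 3.45e-07). Slc24a3, or NCKX3, a potassium-dependent sodium-calcium exchanger, passed the filter in untreated libraries only, with 1.74, 2.01 and 2.11 RPKM in the untreated and 0.473, 0.490 and 0.456 RPKM in the treated libraries.

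The pH-regulating bicarbonate carriers of family 4 and the phosphate importers of family 20 were lower in all their expressed members. Slc4a7, a sodium-bicarbonate cotransporter that loads base into the cell, had 7.69, 7.99 and 8.13 RPKM in the untreated and 3.95, 3.78 and 3.12 RPKM in the treated libraries. The treated libraries were below the untreated ones, 2.19-fold lower (log2 change -0.96 ± 0.072, adjusted p = 3.44e-06). Slc4a2, a chloride-bicarbonate exchanger that unloads base, fell from 14.5 ± 0.299 to 7.86 ± 0.272 RPKM (log2 change -0.81 ± 0.046, adjusted p = 4.71e-07). The potassium-chloride cotransporter Slc12a4 fell from 16.0 ± 0.492 to 9.09 ± 0.309 RPKM (adjusted p = 9.73e-07). Among sodium-proton exchangers of family 9, 4 of 5 were lower, or 2 of 5 with either scaling. Beside these, 46.0% of all tested genes were lower as deposited, and 27.9% and 27.7% with the 2 scalings. Slc9a7, found in the Golgi, went from 5.13 ± 0.158 to 3.34 ± 0.243 RPKM (adjusted p = 6.44e-05), and Slc9a9, an endosomal member, rose from 10.3 ± 0.245 to 12.5 ± 0.609 RPKM (adjusted p = 0.002). The phosphate importers went down, Slc20a1 from 10.9 ± 0.161 to 8.05 ± 0.292 RPKM and Slc20a2 from 3.30 ± 0.175 to 2.39 ± 0.0932 RPKM.

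Sugar carriers were led by Slc37a2. Of 12 members 2 were higher, 5 lower and 5 not called, beside 18.8% higher and 46.0% lower of all tested genes. The class median was -0.06, or 0.07 relative to the median tested gene. With the median of ratios 4 were higher and 5 lower, beside 31.9% and 27.9% of all genes tested. Slc37a2 exchanges glucose 6-phosphate for phosphate in the endoplasmic reticulum and is known as abundant in macrophages. Its libraries held 182, 185 and 191 RPKM in the untreated and 83.5, 84.5 and 86.5 RPKM in the treated libraries. No treated library reached the untreated range, and the mean was 2.19-fold lower (log2 change -1.12 ± 0.041, adjusted p = 2.47e-08). The summed level of the class was 262 ± 5.64 RPKM untreated and 157 ± 0.893 RPKM treated, and without Slc37a2 75.8 ± 1.62 and 72.3 ± 1.37 RPKM (SD, n = 3). The other members of family 37, Slc37a1, Slc37a3 and Slc37a4, were not called, with log2 changes of 0.04, 0.09 and 0.03, and 2 of these 3 were called higher with either scaling.

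Members of the glucose transporter family 2, without the Slc2a1 left out by name, were low and 3 of 4 fell, beside 46.0% of all tested genes. Slc2a1 itself was called higher, from 10.4 to 16.4 RPKM (log2 change 0.61 ± 0.063, adjusted p = 3.12e-05). Slc2a6, or GLUT6, a hexose carrier of lysosomal membranes, had 6.18, 5.29 and 5.62 RPKM in the untreated and 2.04, 2.21 and 2.13 RPKM in the treated libraries. It was 2.67-fold lower with ranges apart (log2 change -1.10 ± 0.062, adjusted p = 4.77e-07). Slc2a8 went from 7.14 ± 0.154 to 4.71 ± 0.162 RPKM and Slc2a3 from 1.91 ± 0.0749 to 1.20 ± 0.138 RPKM, both lower. Slc5a3, the sodium-coupled importer of myo-inositol, fell from 2.77 ± 0.118 to 1.55 ± 0.195 RPKM (adjusted p = 9.14e-05). Slc45a4 rose from 4.32 ± 0.171 to 7.23 ± 0.455 RPKM (adjusted p = 1.29e-05), and Slc50a1, a sugar carrier of the SWEET family, from 14.3 ± 0.878 to 17.0 ± 0.736 RPKM (adjusted p = 0.00581).

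Nucleoside and nucleotide carriers had the highest class median, at 0.42, or 0.55 relative to the median tested gene. Of 6 members 3 were higher, 1 lower and 2 not called, beside 18.8% higher and 46.0% lower of all tested genes. Slc29a1, or ENT1, the equilibrative nucleoside carrier of the plasma membrane, had 13.7, 12.8 and 12.7 RPKM in the untreated and 25.0, 24.3 and 26.5 RPKM in the treated libraries. The ranges were apart, with the treated mean 1.93-fold higher (log2 change 0.90 ± 0.051, adjusted p = 4.47e-07). Slc28a2, or CNT2, which takes up purine nucleosides with sodium, had 5.63, 5.01 and 5.09 RPKM in the untreated and 10.3, 9.30 and 8.81 RPKM in the treated libraries. It was 1.81-fold higher, without overlap (log2 change 0.74 ± 0.066, adjusted p = 1.08e-05). Slc17a9, the vesicular carrier of nucleotides, rose from 1.71 ± 0.120 to 3.83 ± 0.0652 RPKM (log2 change 0.84 ± 0.056, adjusted p = 1.49e-06). Slc29a3, the lysosomal nucleoside carrier ENT3 and the second most abundant of the class in treated libraries, stood at 19.8 ± 0.312 and 21.3 ± 0.965 RPKM and was not called (adjusted p = 0.0893), but passed as higher with the median of ratios and without treated replicate 1 (adjusted p of 0.0485). Slc43a3, a carrier of purine nucleobases, passed the filter in untreated libraries only, with 1.51, 1.80 and 1.53 RPKM in the untreated and 0.510, 0.541 and 0.514 RPKM in the treated libraries.

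Organic ion, osmolyte and amine carriers held 2 of the 4 largest rises of the members by log2 change. Slc6a12, or BGT1, which takes up betaine and GABA, had 1.48, 1.43 and 1.29 RPKM in the untreated and 7.0, 6.89 and 7.11 RPKM in the treated libraries. Every treated library stood above the untreated range, 5.01-fold higher in mean (log2 change 1.74 ± 0.053, adjusted p = 9.24e-09). Slc22a4, or OCTN1, the ergothioneine and organic cation carrier, had 4.26, 4.15 and 4.31 RPKM in the untreated and 12.3, 11.1 and 12.6 RPKM in the treated libraries. It was 2.83-fold higher with ranges apart (log2 change 1.31 ± 0.056, adjusted p = 6.84e-08). Its neighbour and relative Slc22a5, the carnitine importer OCTN2, which lies 91462 bp away on chromosome 11, stood at 4.84 ± 0.317 and 5.08 ± 0.159 RPKM and was not called (log2 change 0.06 ± 0.057, adjusted p = 0.376), though it passed as higher with the median of ratios. Slc6a6, the taurine importer, had 289.5, 285 and 293 RPKM in the untreated and 228, 231 and 239 RPKM in the treated libraries. Its treated libraries were all below, 1.24-fold lower (log2 change -0.31 ± 0.042, adjusted p = 0.000173). The creatine importer Slc6a8, of the same family, stood at 53.4 ± 0.816 and 54.4 ± 2.62 RPKM and was not called, but passed as higher with the median of ratios. The median of the 6 members of the class was 0.04, or 0.17 relative to the median tested gene. Of the 6, 2 were higher, 1 lower and 3 not called, beside 18.8% higher and 46.0% lower of all tested genes.

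Slc16a9, a member of the monocarboxylate transporter family 16, had the largest change of the 158. Its libraries held 0.0937, 0.195 and 0.101 RPKM in the untreated and 11.3, 10.5 and 10.5 RPKM in the treated libraries, so that it was close to undetected in all untreated libraries and at a moderate level in all treated ones. The fewest reads behind an untreated value were 7. The ratio of means was 82.98-fold and the log2 change 3.38, given as a description because it reached 1 RPKM in treated libraries only and so had to differ. It lies on chromosome 10 at 70245100 to 70285968 (mm10, plus strand). Slc16a1, or MCT1, the lactate and pyruvate carrier, went from 3.96 ± 0.156 to 3.10 ± 0.203 RPKM (adjusted p = 0.00277), a call lost under both scalings. Slc16a6 stood at 8.05 ± 0.270 and 9.31 ± 1.02 RPKM (adjusted p = 0.0514), not called, but passed as higher with the median of ratios and without treated replicate 3 (adjusted p of 0.00198). Of the 5 carboxylate carriers 1 was higher, 1 lower and 3 not called, beside 18.8% higher and 46.0% lower of all tested genes. The class median was 0.03, or 0.16 relative to the median tested gene.

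Carriers of lipids and of vitamins, heme and folates each had 3 lower members, of 6 and of 7, with 1 and 2 higher. Of all tested genes 46.0% were lower and 18.8% higher. Slc44a1, the choline carrier CTL1, had 18.5, 19.0 and 19.7 RPKM in the untreated and 7.52, 8.29 and 8.93 RPKM in the treated libraries. Its groups did not overlap, and the mean was 2.31-fold lower (log2 change -1.12 ± 0.061, adjusted p = 3.71e-07). Slc27a1, or FATP1, which brings long-chain fatty acids into the cell and was at rank 4 untreated, went from 88.7 ± 3.31 to 59.9 ± 1.10 RPKM (log2 change -0.56 ± 0.044, adjusted p = 4.26e-06). Slc44a2 fell from 18.4 ± 0.155 to 15.6 ± 1.04 RPKM, a call lost under both scalings. Slc10a3 rose from 14.3 ± 0.481 to 16.3 ± 0.707 RPKM (adjusted p = 0.0119), a call lost without untreated replicate 1 (adjusted p of 0.0554). Slc23a2, or SVCT2, the ascorbate importer, had 26.03, 25.3 and 26.3 RPKM in the untreated and 15.04, 15.1 and 15.2 RPKM in the treated libraries. It was 1.71-fold lower with ranges apart (log2 change -0.74 ± 0.04, adjusted p = 3.65e-07). Slc46a1, the proton-coupled folate carrier that is also known to carry heme, had 7.83, 7.44 and 7.38 RPKM in the untreated and 3.14, 3.57 and 3.97 RPKM in the treated libraries. The groups were apart and the treated mean was 2.12-fold lower (log2 change -0.91 ± 0.07, adjusted p = 4.01e-06). Its relative Slc46a3, a lysosomal carrier, rose from 21.0 ± 0.493 to 26.4 ± 1.22 RPKM (adjusted p = 0.000386). Slc19a1, the reduced folate carrier, fell from 2.70 ± 0.140 to 1.87 ± 0.123 RPKM, and Slc5a6, the sodium-coupled importer of biotin and pantothenate, rose from 2.39 ± 0.177 to 3.28 ± 0.196 RPKM (adjusted p = 0.00136). The 6 lipid carriers had a median of -0.17, or -0.04 relative to the median tested gene, and the 7 vitamin carriers -0.04, or 0.10.

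Carriers that load the Golgi and endoplasmic reticulum with nucleotide sugars and activated groups were the class with the smallest median absolute log2 change, 0.095, and 7 of 12 were not called, 2 higher and 3 lower. With the median of ratios 7 were higher and 2 lower, beside 31.9% and 27.9% of all genes tested. As deposited 18.8% of all tested genes were higher and 46.0% lower. The class median was 0.01, or 0.14 relative to the median tested gene. Slc35b1, known to carry ATP into the endoplasmic reticulum, had 14.6, 14.5 and 15.2 RPKM in the untreated and 25.9, 27.8 and 27.8 RPKM in the treated libraries. It was 1.84-fold higher with ranges apart (log2 change 0.83 ± 0.047, adjusted p = 4.17e-07). Slc33a1, which brings acetyl-CoA into the endoplasmic reticulum, rose from 11.8 ± 0.233 to 14.9 ± 0.970 RPKM (adjusted p = 0.00087). Slc35a3, the carrier of UDP-N-acetylglucosamine, fell from 6.57 ± 0.285 to 4.60 ± 0.501 RPKM (adjusted p = 0.000609). Slc35b2, the carrier of the sulfate donor PAPS, fell from 23.9 ± 1.02 to 18.3 ± 1.95 RPKM (adjusted p = 0.00158), and Slc35d1 from 1.40 ± 0.0706 to 1.12 ± 0.0600 RPKM, the latter a call lost under both scalings and without untreated replicate 2 or 3 or treated replicate 2 (adjusted p of 0.0643 to 0.0772).

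Of 7 members with no substrate assigned here, 1 was higher, 3 lower and 3 not called. Of all tested genes 18.8% were higher and 46.0% lower. Slc35e1 rose from 19.97 ± 0.0444 to 23.6 ± 1.51 RPKM (adjusted p = 0.00383), Slc35e4 fell from 12.0 ± 0.467 to 7.23 ± 0.504 RPKM (adjusted p = 1.05e-05) and Slc35e3 from 6.59 ± 0.154 to 4.90 ± 0.206 RPKM (adjusted p = 0.000207). Slc35a4 was called lower at 27.7 ± 0.564 and 23.6 ± 1.89 RPKM, a call lost under both scalings, and Slc35f5, the most abundant of the 7, stood at 29.9 ± 0.732 and 30.5 ± 1.26 RPKM and was called higher with the median of ratios and the upper-quartile scaling. A further 3 symbols match the pattern but name proteins that are no carriers. Slc9a3r1, or NHERF1, a scaffold that anchors membrane proteins to the cytoskeleton, had 61.5, 61.6 and 59.2 RPKM in the untreated and 115, 123 and 131 RPKM in the treated libraries. It was 2.03-fold higher with ranges apart (log2 change 1.01 ± 0.052, adjusted p = 2.62e-07). Slc7a6os and Slc4a1ap were called lower, at 12.4 ± 0.586 and 10.5 ± 0.626 RPKM and at 5.24 ± 0.391 and 4.58 ± 0.124 RPKM, calls lost under both scalings, and for Slc4a1ap also without untreated replicate 1 or 3 or treated replicate 1 or 2 (adjusted p of 0.07 to 0.151) and without the filter on low values (adjusted p = 0.076).

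**Figure D3:**
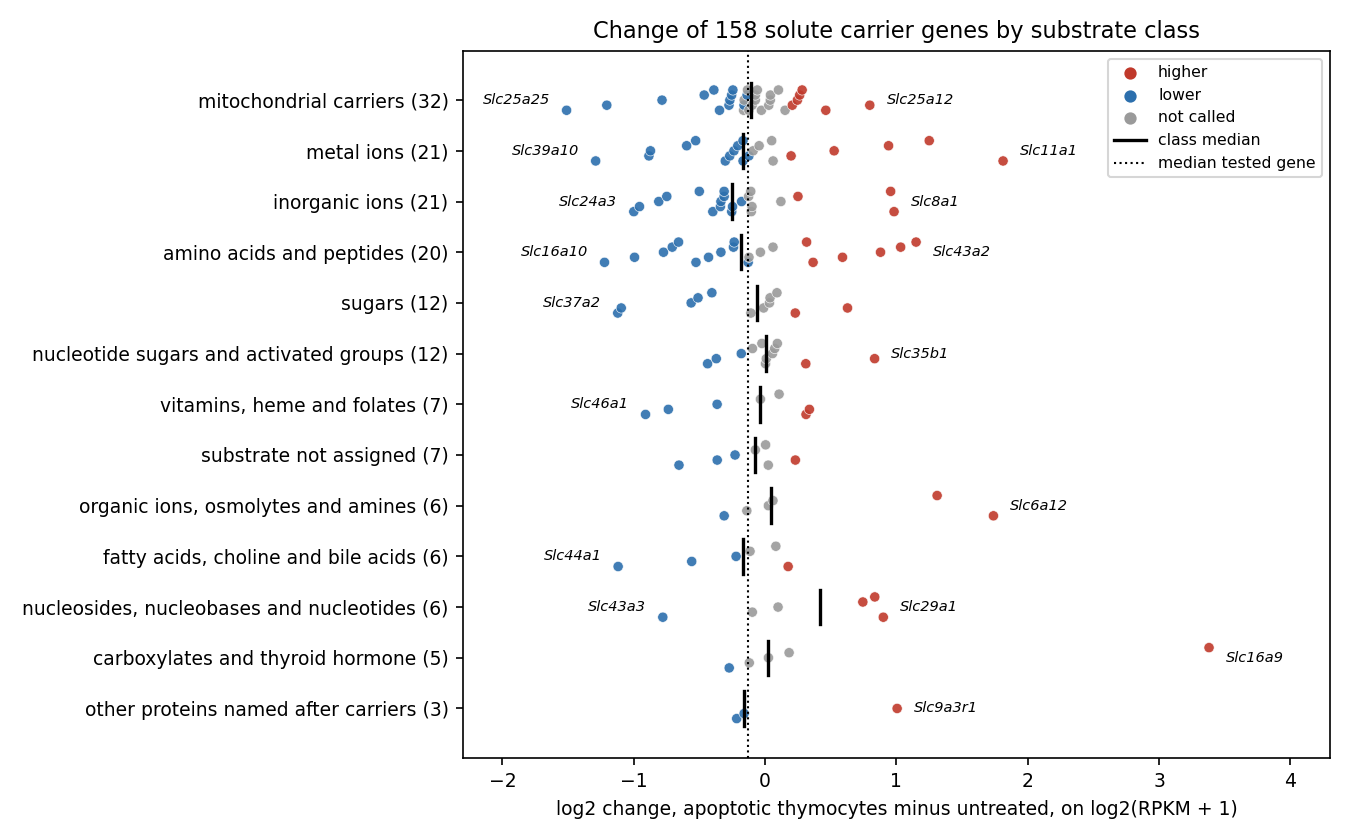
Log2 change (treated minus untreated, on log2(RPKM + 1)) of each of the 158 carriers by substrate class, with the number of members in brackets; 1 point is 1 gene, black bars are class medians, the dotted line is the median of all tested genes and colours give the limma call. Every class holds points on both sides of 0, the bar for nucleosides stands at 0.42 and that for inorganic ions at -0.25, and under the median of ratios all points shift to the right, so that the median of the 158 moves from -0.11 to 0.03.

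Some families held members that moved in opposite directions. Families were counted without the carriers left out by name. Of 39 families 30 had 2 or more members, and 14 held both a called rise and a called fall. In families 16, 24 and 43 the rise of Slc16a9 or the fall of Slc24a3 or Slc43a3 was needed for this, genes that had to differ, and 11 families held both without such genes. With both scalings 10 of these 11 still did, and the exception was family 36, where Slc36a4 turned in sign. With 18.8% of all tested genes called higher and 46.0% lower, groups of several genes can hold both, and the count was not compared with other groups of genes. Among the members counted, the widest spans were in families 16, 25 and 39. They ran from Slc16a10 to Slc16a9, from Slc25a25 to Slc25a12 and from Slc39a10 to Slc39a7. In family 7 the rise among the members counted was that of Slc7a7, with 4 of 6 lower, or 3 of 6 with either scaling. Slc7a11, of family 7 but left out by name, was called higher and rose more than Slc7a7. It went from 1.62 to 35.9 RPKM, with a log2 change of 3.81. Members that lie close together on a chromosome did not all move alike either. Of 7 pairs within 100000 bp, Slc38a1 and Slc38a2, Slc7a6 and Slc7a6os, and Slc31a1 and Slc31a2 were called in the same direction. Slc35b2 and Slc29a1, Slc25a15 and Slc20a2, and Slc25a43 and Slc25a5 were called in opposite directions, although the falls of Slc38a2, Slc7a6, Slc7a6os and Slc25a43 were lost under both scalings. The call of Slc25a43 was also lost without untreated replicate 1 or 3 or treated replicate 1 or 2 (adjusted p of 0.0707 to 0.167), and that of Slc25a15 without untreated replicate 2 (adjusted p of 0.0706). Both were lost without the filter on low values too, with adjusted p of 0.123 and 0.0565.

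**Figure D4:**
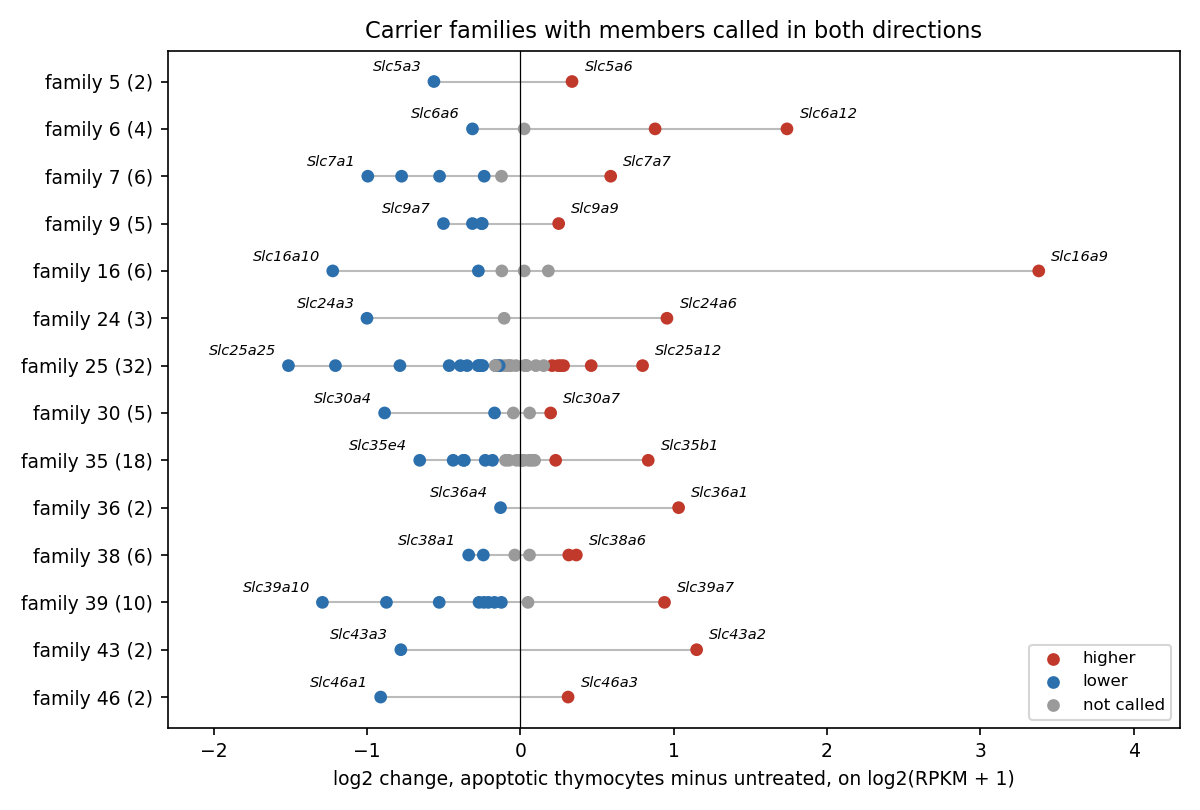
Log2 change (treated minus untreated, on log2(RPKM + 1)) of the members of the 14 carrier families that held both a called rise and a called fall, with the number of members in brackets; 1 point is 1 gene, and the largest rise and fall of each family are named. Among the points shown, family 16 has the widest span, with Slc16a9 at 3.38 and Slc16a10 at -1.22. Carriers left out by name are not shown. The fall of Slc36a4 in family 36 turns in sign under both scalings. Families 16, 24 and 43 are shown although Slc16a9, Slc24a3 and Slc43a3 passed the filter in 1 group only and had to differ.

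Carriers of the lysosome and endosome were examined by a list of 22 entries, of which 20 passed the filter, 18 of them among the 158. Of the 20, 9 were higher, 7 lower and 4 not called, or of the 18, 7, 7 and 4. With the median of ratios 8 of the 18 were higher and 5 lower. Of all tested genes 18.8% were higher and 46.0% lower as deposited, and 31.9% and 27.9% with the median of ratios. The median of the 18 was -0.07, or 0.06 relative to the median tested gene, and of the other 140 carriers -0.12, or 0.01. The rises were led by Slc11a1, Slc36a1 and Slc17a9 and the falls by Slc2a6, Slc30a4 and Slc15a3, whose values are given above. The summed level of the 18 was 368 ± 4.59 RPKM untreated and 557 ± 16.7 RPKM treated (SD, n = 3), of which Slc11a1 alone held 77.6 ± 1.04 and 275 ± 10.6 RPKM. The 2 entries of the list whose symbols do not begin with Slc, Dirc2 and Pqlc2, the latter an exporter of cationic amino acids, went from 4.07 to 6.26 RPKM and from 8.14 to 11.4 RPKM, both higher. Both genes are also counted in the list that follows.

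Transporters whose symbols do not begin with Slc and a number were examined by a list of 32 entries, of which 29 matched the table and 19 passed the filter, with 10 higher, 6 lower and 3 not called, beside 18.8% higher and 46.0% lower of all tested genes. With the median of ratios 11 were higher and 6 lower. Their median log2 change was 0.15, or 0.28 relative to the median tested gene, and the list was chosen with earlier results known. Tmem104 went from 29.2 to 63.9 RPKM (log2 change 1.11, adjusted p = 9.72e-08) and Mpc1, a subunit of the mitochondrial pyruvate carrier, from 34.7 to 57.7 RPKM (log2 change 0.71, adjusted p = 2.02e-06). Mpc2, its partner subunit, stood at 5.94 and 5.68 RPKM and was not called. Slco4a1, an organic anion transporter, went from 3.46 to 0.979 RPKM (log2 change -1.18, adjusted p = 4.10e-06). Mfsd12, a lysosomal protein needed for the import of cysteine, went from 119.9 to 77.6 RPKM (log2 change -0.62, adjusted p = 7.61e-06). Mfsd7b went from 38.9 to 27.6 RPKM (log2 change -0.48, adjusted p = 0.000325).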

How the data were processed

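The deposited values were RPKM in 1 table of 38124 genes with 1 column for each of the 6 libraries, per the file headers, on mouse GRCm38 (mm10), per the submitters' processing notes. Poly(A) RNA was made into stranded TruSeq libraries, per the labels' protocols. Aligner, counter, gene model, use of strand and handling of reads that match several places are not given in the sources used here, so genes with near-identical copies and overlapping genes are uncertain. Genes whose symbol changed stand under the table's symbol.

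A linear model of log2(RPKM + 1) on group alone, with the variance trended on intensity, was run in limma 3.58.1 under R 4.3.3. It covered the 10173 genes that reached 1 RPKM in 3 or more libraries, and p was adjusted by the Benjamini-Hochberg method. Log2 changes are treated minus untreated with the moderated SE, and understate the change of genes near 1 RPKM. Folds are ratios of mean RPKM, and values after ± beside RPKM are SD over 3 libraries. Python 3.11.15, pandas 2.3.3 and numpy 2.4.6 were used for all other steps. The test was tried on simulated data without a shift of whole libraries, so that trial does not bear on the scaling of these data. Depth was recovered as the number of mapped reads that makes reads whole for genes at their GENCODE M21 union length. At that depth and length the reads of 4736 of the 10173 genes were whole within 0.01. For the others a length that makes the reads whole was searched, so they do not bear on the depth. Gene lengths were the GENCODE M21 union length for 83 of the 158 genes and a searched length for 75, so the reads of the latter could share a common factor. Intervals from reads would cover counting error only, and none are given.

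The members, classes and lists were chosen with earlier results of these data known. Of each class up to 3 rises and 3 falls with the largest change and the most abundant member are named, of each family with both directions the largest of each, the genes at the filter and those that passed in 1 group, and of the 2 transporter lists up to 3 in each direction; 71 members were named by this rule. A further 23 were singled out after their values were seen. The log2 limit of 1, the 100000 bp limit, the motifs and the choice of printed promoters were also set after results were seen, as was the move of Slc7a6os and Slc4a1ap out of the carrier classes by their symbols. The log2 limit was raised once from a lower value. RefSeq promoters matched 122 of the 158 genes, too few for a share over members, and such shares were computed once and left out. A glucocorticoid response core was also searched and is not reported here. Some uncalled members with changes near 0 are not named. Alternatives were 2 scalings, a pseudocount of 0.1, no filter, a filter in all 6 libraries, no intensity trend, a replicate block and leaving out each library.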

Additional observations from a re-analysis of the deposited data

How the results depend on the processing

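Scaling moved the balance of calls more than any other choice tried. With the median of ratios 60 of the 158 carriers were higher and 46 lower, and with the upper quartile 59 and 46, against 35 and 70 as deposited. Metal carriers were then 8 higher and 7 lower with both, mitochondrial carriers 11 and 6 with both, nucleotide sugar carriers 7 or 6 higher, and sugar carriers 4 higher with both. The median of the 158 turned from -0.11 to 0.029 and 0.032, and was -0.14 with a pseudocount of 0.1. Slc36a4 turned from -0.13 to 0.033 and 0.036, Slc39a3 from -0.12 to 0.028 and 0.031, Slc25a1 from -0.14 to 0.027 and 0.031, and Slc25a37, not called, from -0.03 to 0.13 with both. Of the 95 genes examined singly, 74 kept direction and side of the threshold with each scaling, 95 with a pseudocount of 0.1, 94 without the trend, which lost Slc25a1 (adjusted p = 0.0625), and 91 without the filter. Leaving out 1 library at a time gave 34 to 37 higher and 60 to 71 lower. Slc39a3 and Slc25a1 lost their calls without untreated replicate 1, 2 or 3 or treated replicate 1 or 2 (adjusted p of 0.0704 to 0.144), and Slc25a1 also without the filter (adjusted p = 0.0782). Leaving out a library turned 4 uncalled carriers near 0, with ranges of -0.10 to 0.017 for Slc25a37, -0.015 to 0.076 for Slc25a28, -0.026 to 0.067 for Slc37a4 and -0.012 to 0.054 for Slc6a8.

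Deviations from the group mean correlated across genes at 0.197, -0.031 and -0.162 between libraries with the same replicate number. Between libraries with different numbers they correlated at -0.319 to 0.326. With 3 libraries in each group, these values cannot decide whether the numbers pair the samples. The fit with the replicate block gave 36 higher and 66 lower carriers, and Slc36a4, Slc39a3 and Slc25a1 were not called in it (adjusted p of 0.0637, 0.0664 and 0.0528). Rows near 1 RPKM rest on the fewest reads and limit what can be said of small changes there.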
